A study of Rattus norvegicus with 21 samples.

Results

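The genes of GABA signalling described here are 28 genes chosen by symbol and measured in the dentate gyrus of rats, out of 14506 genes with a single gene symbol on the array. A probe set, the group of array probes that measures 1 transcript, was taken where it was annotated to exactly 1 of the 28 symbols, and every one of the 28 genes had 1 such probe set. Receptor subunits make up 16 of the genes. The other 12 cover synthesis, vesicle loading, uptake, breakdown, postsynaptic scaffolding and chloride transport. Of the 28, 27 exceeded the low signal limit, a mean log2 value of 6.62, and were tested together with all other genes above it, 11940 in all.

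The dentate gyrus is the hippocampal subfield that holds granule neurons. RNA was taken from it in 18 wild type male Wistar rats, 2 months old, with 3 animals in each of 6 groups. Control rats were untreated. The stress group was exposed for 6 weeks to unpredictable chronic mild stress (a schedule of mild stressors used to model depression). The other 4 groups were exposed to that stress and were given 1 antidepressant intraperitoneally each day of the last 2 weeks. Fluoxetine, a serotonin reuptake inhibitor, was given at 10 mg/kg in water. Imipramine, a tricyclic antidepressant, and tianeptine, an antidepressant with a tricyclic core, were given at 10 mg/kg in saline. Agomelatine, a melatonin receptor agonist, was given at 40 mg/kg in hydroxyethylcellulose. Dose and vehicle therefore differed between agomelatine and the other drugs. The labels do not say whether control and stress animals were injected, so a drug and its injections cannot be told apart. Replicates are labelled as biological replicates, and the RNA of every control animal was hybridised to a repeat array too, whose values were averaged with those of the first.

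GABA is the main inhibitory transmitter of the adult brain. Glutamate decarboxylases make it from glutamate, a vesicular carrier loads it for release, plasma membrane carriers take it up again, and GABA transaminase with succinate semialdehyde dehydrogenase breaks it down. GABA-A receptors are pentameric chloride channels built from alpha, beta, gamma, delta and rarer subunits, whereas GABA-B receptors are G protein coupled dimers. Synaptic receptors contain a gamma subunit and are held by gephyrin. Receptors with the delta or the alpha5 subunit lie largely outside the synapse and carry tonic inhibition, and granule neurons are known for the alpha4 and delta form. The sodium, potassium and chloride importer Slc12a2 and the chloride exporter Slc12a5 set the chloride gradient that decides the sign of the response.

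Promoter sequence is shown for 3 of the genes whose levels differed between groups: Gabra5 and Gabrd, 2 extrasynaptic receptor subunits whose levels went in opposite directions with agomelatine, and Gabarap, the gene with the smallest p over the 6 groups. Each is the 250 bases before the RefSeq start site in assembly GRCr8, written 5′ to 3′ on the gene's strand. Gabra5 lies at chr1:117516607-117516856 on the minus strand, Gabrd at chr5:171252710-171252959 on the minus strand and Gabarap at chr10:55213215-55213464 on the plus strand. Capitals mark GC boxes, GGGCGG on either strand.
Gabra5: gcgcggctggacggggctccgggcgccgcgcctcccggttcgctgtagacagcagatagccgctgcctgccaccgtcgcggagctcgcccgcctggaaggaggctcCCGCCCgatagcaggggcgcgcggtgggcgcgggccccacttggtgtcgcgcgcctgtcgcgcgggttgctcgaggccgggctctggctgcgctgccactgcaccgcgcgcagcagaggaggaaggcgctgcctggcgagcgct
Gabrd: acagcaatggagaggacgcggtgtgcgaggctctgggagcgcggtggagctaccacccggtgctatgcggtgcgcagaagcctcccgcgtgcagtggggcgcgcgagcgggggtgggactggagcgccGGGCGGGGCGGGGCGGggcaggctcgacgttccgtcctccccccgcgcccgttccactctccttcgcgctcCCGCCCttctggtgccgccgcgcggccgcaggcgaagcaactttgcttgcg
Gabarap: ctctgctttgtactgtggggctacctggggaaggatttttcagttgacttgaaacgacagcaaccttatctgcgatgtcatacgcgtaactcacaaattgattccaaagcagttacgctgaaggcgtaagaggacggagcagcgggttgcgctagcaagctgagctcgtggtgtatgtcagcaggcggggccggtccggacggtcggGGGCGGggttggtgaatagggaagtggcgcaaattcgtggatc
Of the 28 genes, 25 had a promoter in the RefSeq table, and Abat, Gabra2 and Slc6a13 had no entry. A GC box was present in 16 of the 25 promoters (64.0%), against 30.5% of all 33469 promoters in that table. Those had the same length but were not selected by gene type or GC content. Gabrd held 4 matches, 3 of them overlapping in 1 run, and Gabra5 and Gabarap held 1 each. The GC content was 76.4% for Gabra5, 74.0% for Gabrd and 55.2% for Gabarap, with a median of 68.4% over the 25 and 51.2% over all promoters. On both strands, the cyclic AMP response element TGACGTCA was found in 0 of 25 (1.59% of all promoters) and the E box CACGTG in 0 of 25 (5.59%). The TATA box TATAAA was found in 3 of 25 (12.0%, against 12.9% of all) and AGAACA, part of the glucocorticoid response element, in 3 of 25 (12.0%, against 17.5%). In gene order, Gabrg3 neighbours Gabra5, Gabrb1 neighbours Gabra4, Gabra2 neighbours Gabrg1, Gabra6 neighbours Gabrb2 and Gabrr2 neighbours Gabrr1.

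Values are log2 expression values, and array medians over the tested genes ran from 8.996 to 9.132. The median SD between the 3 animals of a group was 0.118 over all genes with agomelatine and 0.0648 to 0.0848 in the other groups. The defining granule neuron marker Prox1 was read at 11.05 to 11.84 over the 18 animals, at the 93.9th percentile of the tested genes by its mean. Marker levels of several cell types differed between animals. The mean of 17 measured oligodendrocyte markers was 10.49 to 11.01 in the agomelatine animals and 9.88 to 10.16 in all others. The mean of 11 choroid plexus markers was 10.42 in agomelatine animal 1, 7.94 in stress animal 1 and 6.998 to 7.190 in the other 16. The mean of 6 granule neuron markers was 10.83 to 11.04 with agomelatine and 11.14 to 11.38 in all others. For 10 markers of CA pyramidal neurons, the cells of the adjoining hippocampal fields, the mean was 9.07 to 9.46 with agomelatine, 9.38 in stress animal 3 and 8.91 to 9.06 in the other 14. In bulk tissue, fewer cells of a type and less RNA per cell cannot be told apart.

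**Figure D1:**
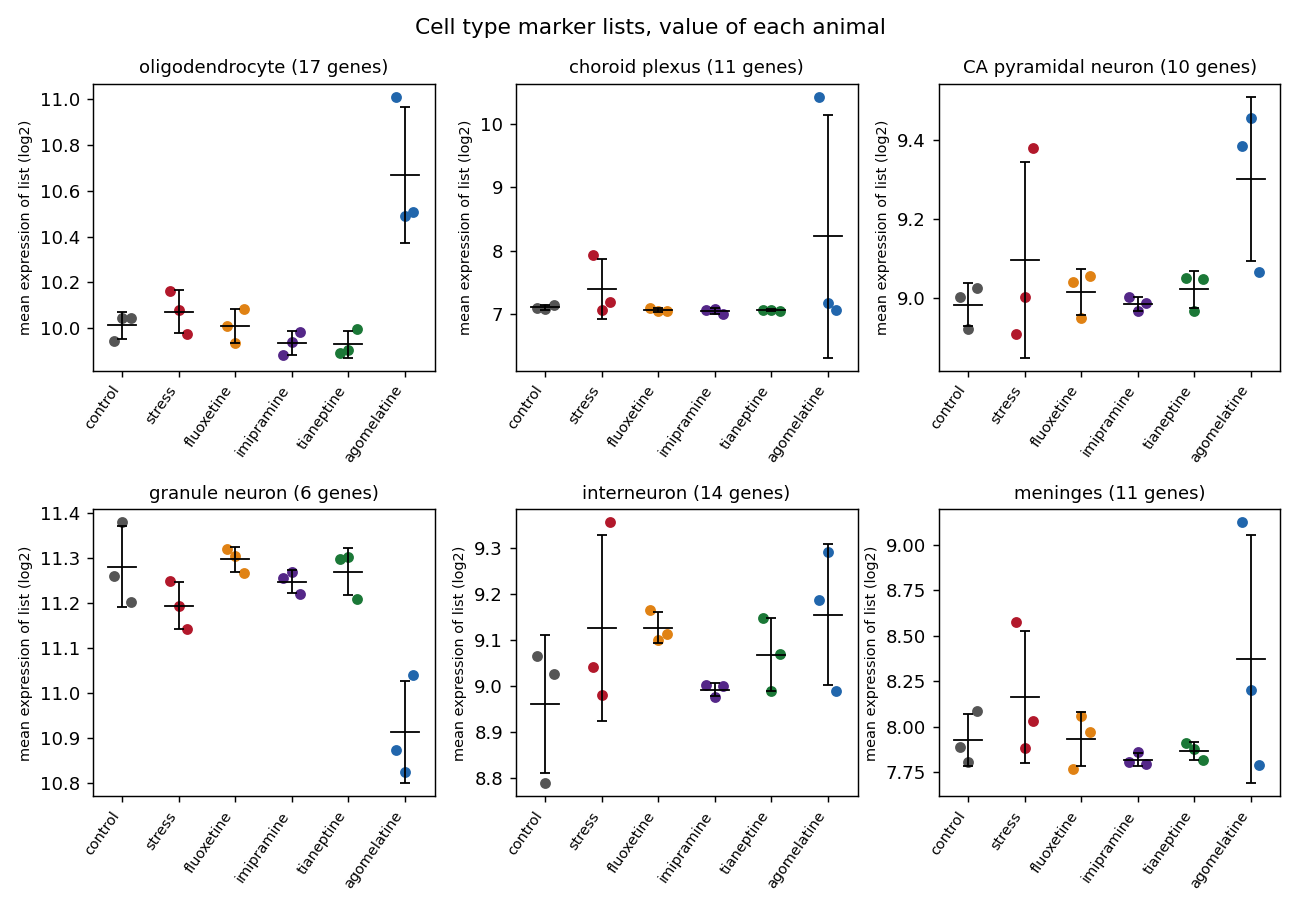
Mean log2 expression of the measured genes of 6 cell type marker lists in each of 18 animals, by group; points are animals, the horizontal line is the group mean and the bars are the SD (n = 3). The agomelatine animals lie above all others for oligodendrocyte markers and below all others for granule neuron markers, and agomelatine animal 1 stands apart for choroid plexus markers at 10.42.

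Over all 15 pairs of groups, 7 of the 27 tested genes changed in at least 1 pair at an adjusted p under 0.05 (limma, Benjamini-Hochberg over 11940 genes): the receptor subunits Gabra4, Gabra5 and Gabrd, the GABA synthesis enzyme Gad2, the scaffold and trafficking genes Gphn and Gabarap, and the chloride importer Slc12a2. Over all genes, 19.9% were called in at least 1 pair. All 19 of these calls lay in the 5 comparisons that include agomelatine, which share the same 3 agomelatine animals (14.1% of 135 gene tests, against 9.73% over all genes). In the 10 comparisons without agomelatine, 0 of the 27 genes passed the test, and the smallest adjusted p was 0.354. At an unadjusted p under 0.05, 23 of 270 gene tests without agomelatine passed (8.52%, against 6.21% over all genes), and 46 of 135 with agomelatine (34.1%, against 25.6%). The F test over the 6 groups called Gabra5 (adjusted p = 0.0196), Gabarap (0.00931) and Slc12a2 (0.0189), or 3 of 27, beside 5.73% of all genes. It called 1 without agomelatine animal 1, 2 without agomelatine animal 2 and 5 without agomelatine animal 3. Over all genes the F test called 247, 404 and 662 of 11940 in those fits, in the same order, against 684 with all animals.

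**Figure D2:**
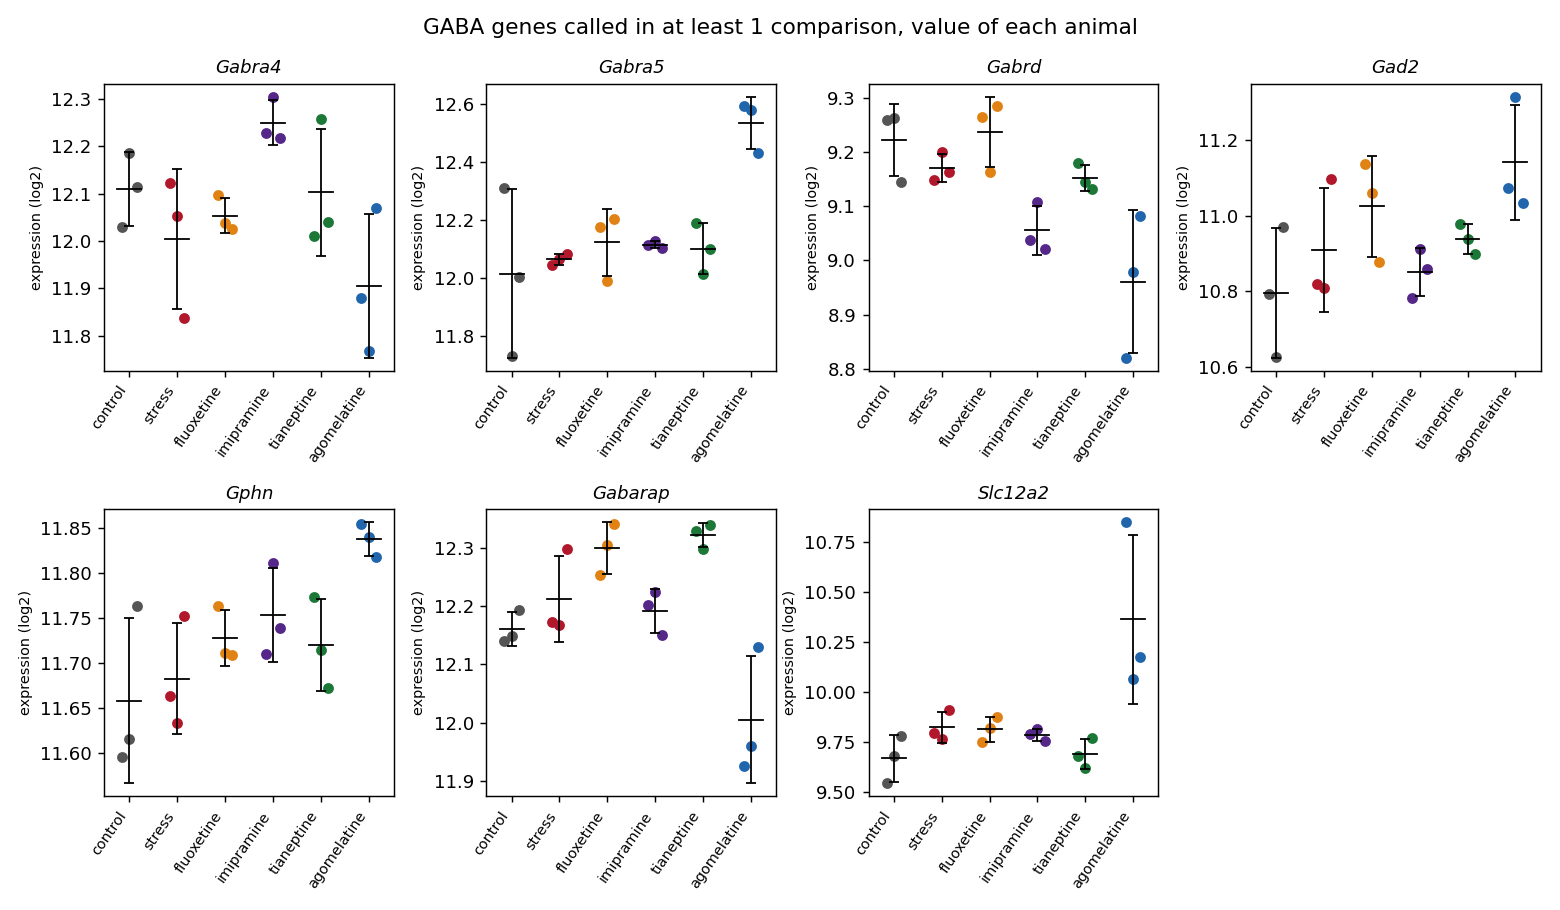
Log2 expression of the 7 GABA genes called in at least 1 of 15 comparisons, in each of 18 animals by group; points are animals, the horizontal line is the group mean, the bars are the SD (n = 3), and each panel has its own axis. Gabra5 and Slc12a2 read higher in every agomelatine animal than in any other animal, and Gabarap read lower.

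With agomelatine against stress, Gabra5 and Slc12a2 rose and Gabarap fell, so 3 of 27 genes changed, beside 9.54% of all genes called in that comparison. The 2 higher genes stand beside 3.78% of all genes called higher, and the 1 lower gene beside 5.76% called lower. At an unadjusted p under 0.05, 10 of 27 passed, against 25.5% of all genes. The median difference over the 27 genes was -0.01, against -0.02 over all genes, and 13 of 27 lay above 0. Animals did not overlap between the 2 groups for 6 of the 27 genes, against 23.7% of all genes. Against control, 5 of 27 changed: Gabra5, Slc12a2, Gad2 and Gphn rose and Gabrd fell, beside 8.58% of all genes (4.71% higher and 3.88% lower). There 11 of 27 had an unadjusted p under 0.05, against 24.2% of all genes, and animals did not overlap for 9 of 27, against 24.4%. Against fluoxetine, 4 changed (10.3% of all genes), against imipramine 4 (8.37%) and against tianeptine 3 (11.8%). These counts moved with single animals, and so did the counts over all genes. Against control 2 genes were called without agomelatine animal 1, control animal 1 or control animal 2, 3 without agomelatine animal 2 and 9 without agomelatine animal 3. Over all genes the counts in those fits were 494, 527, 259, 1302 and 1245 of 11940, in the same order, against 1025 with all animals. Without agomelatine animal 3 the count was 5 against stress and 6 against tianeptine (1144 and 1512 of all genes, against 1139 and 1413). Without fluoxetine animal 3, which enters the shared spread, it was 5 against stress and 7 against imipramine (1454 and 1236 of all genes, the latter against 999). Without agomelatine animal 2 or imipramine animal 2 it was 2 against imipramine (935 and 445 of all genes).

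Gabra5 (probe set 10722347) encodes the alpha5 subunit of extrasynaptic GABA-A receptors, which is abundant in hippocampal pyramidal neurons. With agomelatine the 3 animals read 12.59, 12.58 and 12.43. The stress animals read 12.05, 12.07 and 12.08, and the control animals 12.31, 11.73 and 12.00. Every agomelatine animal was above every animal of the other 5 groups, whose highest value was that of control animal 1, and the control group had the widest spread (SD 0.29). The difference was 0.47 (SE 0.10, adjusted p = 0.00636) against stress and 0.52 (SE 0.10, adjusted p = 0.00359) against control. Against fluoxetine, imipramine and tianeptine it was 0.41, 0.42 and 0.43 (adjusted p = 0.0120, 0.0125 and 0.00781). Without fluoxetine animal 2 the adjusted p against fluoxetine was 0.0583. With only the 2 groups fitted, the adjusted p against control was 0.0522. Stress, fluoxetine, imipramine and tianeptine means lay between 12.07 and 12.12, and none of these pairs passed. The imipramine animals, at 12.12, 12.13 and 12.10, lay above all stress animals by 0.05 (adjusted p = 0.908).

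Of the 10 CA pyramidal markers, 2 rose with agomelatine against stress, Wfs1 by 0.76 and Cpne4 by 0.37, and 7 of 10 lay above 0. Stress animal 3, with a CA pyramidal mean of 9.38, read 12.08 for Gabra5, the highest of its group, beside 12.05 and 12.07 in the other stress animals and at least 12.43 with agomelatine. Agomelatine animal 3, with the lowest CA pyramidal mean of its group at 9.07, read the lowest Gabra5 of its group, 12.43. Their part in the Gabra5 difference was not tested.

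Gabrd (probe set 10882145), the delta subunit of tonic receptors, read 8.82, 8.98 and 9.08 with agomelatine. Control animals read 9.26, 9.26 and 9.15, and stress animals 9.15, 9.20 and 9.16. No agomelatine animal reached the lowest control or stress animal, but imipramine animals, at 9.04, 9.11 and 9.02, overlapped the agomelatine range. Gabrd fell by 0.26 against control (SE 0.07, adjusted p = 0.0235) and by 0.28 against fluoxetine (adjusted p = 0.0143). Against stress the difference was -0.21 (SE 0.07, adjusted p = 0.0571), which did not pass. Without agomelatine animal 1 it was -0.19 against control (adjusted p = 0.115), and the call was also lost without control animal 1 or control animal 2 (adjusted p = 0.0839 and 0.105). Without agomelatine animal 1 the call against fluoxetine was lost too (adjusted p = 0.0705). With only the 2 groups fitted, the calls against control (0.159) and fluoxetine (0.177) were lost, and with array weights that against control (0.061).

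Gabra4 (probe set 10772522), the alpha4 subunit that pairs with delta in granule neurons, changed only in agomelatine against imipramine among the 15 comparisons. Imipramine animals read 12.23, 12.30 and 12.22 and agomelatine animals 11.88, 11.77 and 12.07, with no overlap. The difference was -0.34 (SE 0.08, adjusted p = 0.0134), and it did not pass without agomelatine animal 2 (0.0545) or imipramine animal 2 (0.0621). Stress animals read 12.12, 12.05 and 11.84 and control animals 12.03, 12.19 and 12.11, both overlapping the agomelatine range. Imipramine minus stress was 0.24 with no overlap between animals (adjusted p = 0.485). Beside Gabrd and Gabra4, all 6 measured granule neuron markers lay below 0 in agomelatine minus stress, with C1ql2 and C1ql3 called lower (by 0.55 and 0.24), and against control 4 of 6 were called lower. The granule marker mean of the imipramine animals, 11.22 to 11.27, lay inside the range of the untreated and stressed animals. The part of the granule markers in the receptor differences was not tested.

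None of the other 12 tested receptor subunits passed in any of the 15 comparisons of the main fit. The alpha2 and alpha3 subunit genes read 12.09 to 12.35 (Gabra2) and 10.86 to 11.63 (Gabra3) over all animals, and the beta subunit genes 11.93 to 12.19 (Gabrb1) and 10.93 to 11.15 (Gabrb2). Agomelatine minus stress was 0.04, -0.21, -0.05 and -0.01 for Gabra2, Gabra3, Gabrb1 and Gabrb2. The gamma subunit genes lay higher with agomelatine without passing. Gabrg1 read 11.31, 11.34 and 10.98 with agomelatine against 11.01, 10.86 and 10.87 under stress, a difference of 0.29 (SE 0.10, adjusted p = 0.0597). It passed as higher with the replicate number as a block (adjusted p = 0.0408), with the filter at the 50th percentile (0.0483) and with equal array medians (0.0329). Gabrg3, the neighbour of Gabra5, read 9.99, 9.70 and 9.38 against 9.44, 9.15 and 9.66, a difference of 0.27 (SE 0.14, adjusted p = 0.246). For both, agomelatine and stress animals overlapped.

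The GABA-B genes had narrow ranges. Gabbr1, the subunit that binds GABA, read 12.34 to 12.61 and Gabbr2, the subunit that couples to the G protein, 11.89 to 12.03 over all 18 animals. Agomelatine minus stress was -0.03 (95% confidence interval -0.17 to 0.10) for Gabbr1 and 0.01 (-0.07 to 0.10) for Gabbr2. With imipramine both read below every stress animal, by 0.09 and 0.06, without passing (adjusted p = 0.691 and 0.656).

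The rho and minor subunit genes gave less certain values. Gabrr1 read 6.80 to 7.15 and Gabre 6.59 to 7.07 over all animals, near the low signal limit. Gabrr2, a rho subunit gene, read 7.07, 6.90 and 7.28 under stress, 7.30, 7.33 and 7.67 with fluoxetine and 7.34, 7.73 and 7.28 with agomelatine. Fluoxetine minus stress was 0.35 with no overlap (adjusted p = 0.934), and agomelatine minus stress 0.36 with overlap (adjusted p = 0.0924). Gabrq, the theta subunit gene, had the widest spread of the 27, with a within-group SD of 0.63 against a median of 0.11. Under stress it read 8.27, 6.51 and 8.14 and in control animals 7.55, 6.32 and 6.96, so stress minus control was 0.70 with a 95% confidence interval of -0.19 to 1.58. Gabra6, the alpha6 subunit gene known from cerebellar granule cells, read 5.25 to 5.88 in every animal, below the limit, and was not tested.

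Among the synthesis genes, Gad2 (probe set 10796751), the smaller glutamate decarboxylase, read 11.07, 11.32 and 11.03 with agomelatine. Control animals read 10.79, 10.63 and 10.97, all lower. Stress animals read 10.82, 10.81 and 11.10, the last inside the agomelatine range. Gad2 rose by 0.34 against control (SE 0.09, adjusted p = 0.0324), and agomelatine minus stress was 0.23 (adjusted p = 0.129). The call against control was lost without agomelatine animal 1 (adjusted p = 0.0521), agomelatine animal 2 (0.0993), control animal 1 (0.0850) or control animal 2 (0.171). It was also lost with repeat control arrays only (0.0615), array weights (0.0645) and only the 2 groups fitted (0.105).

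Gad1, the larger decarboxylase, read 10.91, 10.98 and 10.86 with fluoxetine and 10.77, 10.54 and 10.75 in control animals. These did not overlap, but the difference of 0.23 did not pass (adjusted p = 0.950), and agomelatine minus stress was 0.05. Slc32a1, the vesicular GABA carrier, read 8.92, 8.93 and 9.40 under stress. Tianeptine animals, at 9.16, 9.09 and 9.20, lay above all imipramine animals, at 8.74, 8.95 and 8.87, with a difference of 0.30 (95% confidence interval 0.09 to 0.51, adjusted p = 0.838).

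The mean of 14 measured interneuron markers was 9.19, 9.29 and 8.99 with agomelatine, 9.04, 8.98 and 9.36 under stress and 9.07, 8.79 and 9.03 in control animals. Stress animal 3 had the highest interneuron mean and also the highest Slc32a1 of all 18 animals, and control animal 2 had the lowest interneuron mean and the lowest Gad1 and Gad2. Other animals did not follow this: agomelatine animal 3 had a lower interneuron mean than control animals 1 and 3 but a higher Gad2 than every control animal, and the lowest Slc32a1 was that of imipramine animal 1. In agomelatine against control, 3 of the 14 markers were called higher and 1 lower, and against stress only Penk was called, lower by 0.80. The part of these markers in the synthesis gene differences was not tested.

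The uptake and breakdown genes did not pass in any comparison of the main fit. Slc6a11, an astrocyte GABA carrier, read 10.48 to 10.90 over all animals, and imipramine lay below stress without overlap, by 0.19 (adjusted p = 0.497). With array weights it passed as lower in imipramine against fluoxetine (-0.22, adjusted p = 0.0471). Slc6a13, a GABA carrier known from the meninges, read 8.73, 8.03 and 7.93 under stress and 7.44, 8.11 and 7.54 with agomelatine, a difference of -0.53 (adjusted p = 0.0824). Without agomelatine animal 2 it passed as lower (-0.74, adjusted p = 0.0231). Stress animal 1 held the highest value of all 18, and its mean of 11 meningeal markers, 8.57, was above those of the other stress animals. Agomelatine animal 1, with the highest meningeal mean at 9.12, held the lowest Slc6a13, and the part of these markers was not tested. Abat, the GABA transaminase, read 10.93 to 11.37, and agomelatine minus stress was 0.08. Without stress animal 3 it passed as higher in agomelatine against imipramine (0.21, adjusted p = 0.0408). Aldh5a1, succinate semialdehyde dehydrogenase, had the narrowest within-group SD of the 27, 0.0323, and read 10.78, 10.72 and 10.77 under stress against 10.69, 10.67 and 10.61 in control animals. The stress animals lay above all control animals by 0.10 (SE 0.05), and this did not pass (adjusted p = 0.822).

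Gabarap (probe set 10735105), a ubiquitin-like protein that binds gamma subunits and acts in receptor trafficking and autophagy, read 11.93, 11.96 and 12.13 with agomelatine. Stress animals read 12.17, 12.17 and 12.30, control animals 12.14, 12.15 and 12.19, fluoxetine animals 12.25, 12.31 and 12.34 and tianeptine animals 12.33, 12.30 and 12.34. The agomelatine animals were the lowest 3 of the 18. Gabarap fell by 0.21 against stress (SE 0.05, adjusted p = 0.0195), by 0.29 against fluoxetine (0.00203), by 0.19 against imipramine (0.0355) and by 0.32 against tianeptine (0.00128). Against control the difference was -0.16 (adjusted p = 0.0740). The call against stress was lost without agomelatine animal 1 (0.0779), agomelatine animal 2 (0.0559) or stress animal 3 (0.0937), and that against imipramine without either of those agomelatine animals or any 1 imipramine animal, while the calls against fluoxetine and tianeptine were kept without any 1 animal. With array medians made equal, agomelatine minus stress was -0.17 (adjusted p = 0.0938). The call against stress was also lost with all 21 arrays and the animal as a random block (0.0862). With only the 2 groups fitted, the calls against stress (0.154), fluoxetine (0.0797) and imipramine (0.124) were lost.

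Gabarap also differed between 2 arrays of the same animal. On the first arrays the control animals read 12.25, 12.28 and 12.28, and on the repeat arrays 12.03, 12.02 and 12.11. The repeat arrays were lower in all 3 animals, with a mean difference of -0.22 (SD 0.04), beside -0.21 for agomelatine minus stress. Against the repeat control arrays alone, Gabarap passed as higher with fluoxetine (0.25, adjusted p = 0.0475) and tianeptine (0.27, adjusted p = 0.0348), and against the first arrays alone it passed as lower with agomelatine (-0.26, adjusted p = 0.00318). The values of repeat minus first array were 0.12 for Gphn, 0.17 for Gabrg1 and Nlgn2, 0.13 for Gabra5, -0.16 for Slc12a5 and -0.18 for Slc6a11. For 13 of the 27 genes all 3 repeat arrays lay on 1 side of the first arrays, against 42.9% of all genes. The run or scan round of the arrays was not known here, and its part in the group differences was not tested.

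**Figure D3:**
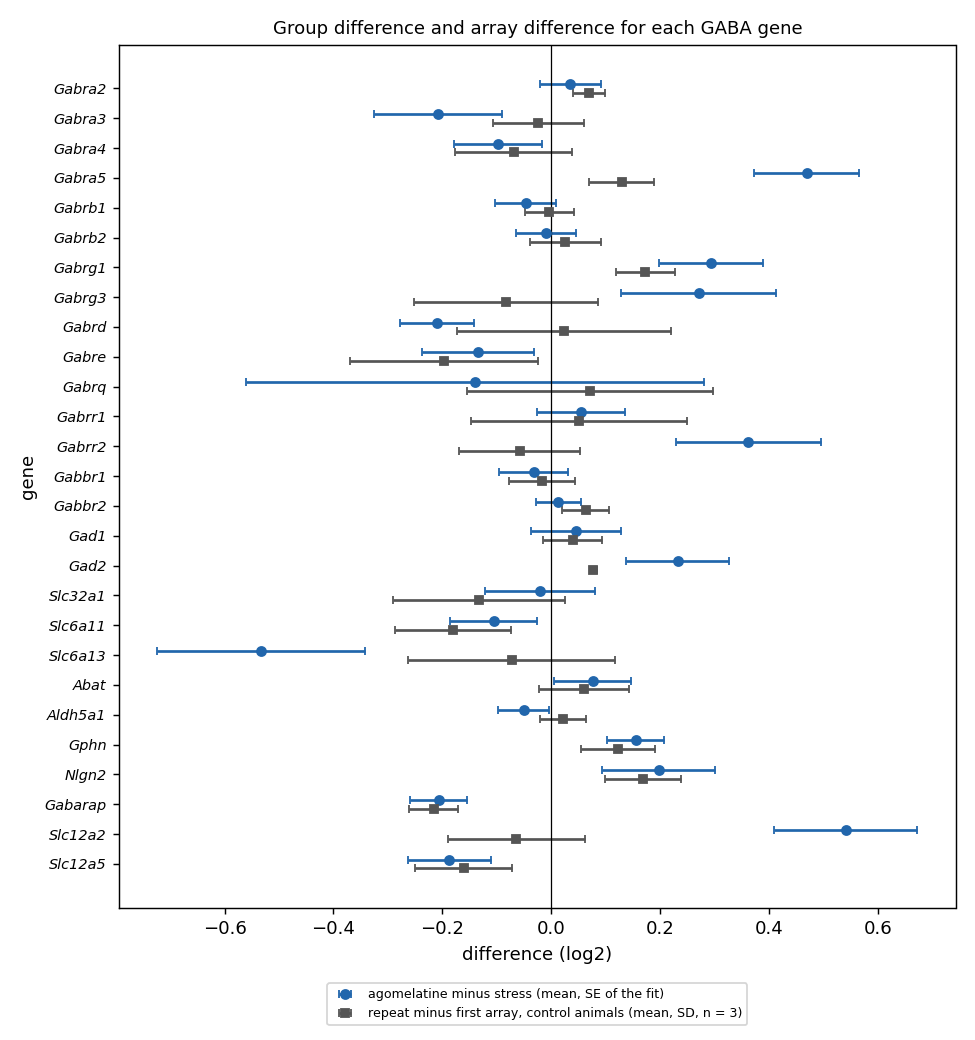
Difference in log2 expression for the 27 tested GABA genes: circles are agomelatine minus stress with the SE of the fit, squares are the mean of repeat minus first array of the 3 control animals with its SD. Among others, Gabarap, Gphn, Nlgn2, Slc12a5, Gabra4, Gabre and Slc6a11 have both values on 1 side and close together. Gabra5 lies at 0.47 beside an array difference of 0.13 on the same side, and Slc12a2 at 0.54 beside -0.06. Repeat arrays exist for control animals only, and the part of array differences in the group differences was not tested.

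Gphn (probe set 10885484), gephyrin, the scaffold that anchors receptors at inhibitory synapses, read 11.86, 11.84 and 11.82 with agomelatine. Control animals read 11.60, 11.62 and 11.76 and stress animals 11.66, 11.63 and 11.75, all below the agomelatine animals. Gphn rose by 0.18 against control (SE 0.05, adjusted p = 0.0385), and the difference from stress was 0.15 (adjusted p = 0.0657). The call against control was kept under 6 of 14 other settings. The difference was 0.24 (adjusted p = 0.00361) with the first arrays alone and 0.12 (adjusted p = 0.232) with the repeat arrays alone. The call was also lost with equal array medians (adjusted p = 0.0510), a further quantile normalization (0.0670), array weights (0.125), no variance trend (0.0699), all probe sets tested (0.0514), the replicate number as a block (0.0562) and only the 2 groups fitted (0.147). It was lost too without agomelatine animal 1 or 2, control animal 1 or 2, or imipramine animal 3. Nlgn2, the adhesion protein of inhibitory synapses, read 10.37 to 10.94 over all animals and agomelatine minus stress was 0.20 (adjusted p = 0.249).

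Slc12a2 (probe set 10801884), the chloride importer NKCC1, is also known from choroid plexus epithelium and glia. With agomelatine it read 10.85, 10.07 and 10.18. Stress animals read 9.79, 9.76 and 9.91 and control animals 9.54, 9.68 and 9.78, and all 15 animals outside the agomelatine group lay at or below 9.91. It rose by 0.54 against stress (SE 0.13, adjusted p = 0.0157) and by 0.70 against control (SE 0.13, adjusted p = 0.00385). Against fluoxetine, imipramine and tianeptine it rose by 0.55, 0.58 and 0.67 (adjusted p = 0.0128, 0.0117 and 0.00366). These fits share 1 spread over all 6 groups, whereas the SD was 0.42 with agomelatine and 0.03 to 0.12 in the other groups. With only the 2 groups fitted, the rise passed against tianeptine (adjusted p = 0.0452). It did not pass there against stress (0.133), control (0.063), fluoxetine (0.156) or imipramine (0.0928). Without agomelatine animal 1 the rise was 0.30 against stress (adjusted p = 0.0274), 0.45 against control, 0.31 against fluoxetine, 0.33 against imipramine and 0.43 against tianeptine, all of which passed. Without stress animal 2 the difference from stress was 0.51 (adjusted p = 0.0596).

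Levels of choroid plexus and oligodendrocyte markers are given here beside Slc12a2. Agomelatine animals 2 and 3, at 10.07 and 10.18 for Slc12a2, had choroid plexus means of 7.175 and 7.076. Agomelatine animal 1, the highest for Slc12a2, had the choroid plexus mean of 10.42, with the choroid plexus transthyretin gene Ttr at 14.01 against 6.94 to 8.27 in 16 animals. Stress animal 1, with Ttr at 11.77 and a choroid plexus mean of 7.94, read 9.79 for Slc12a2, between the other stress animals. Of 17 oligodendrocyte markers, 14 were called higher and 0 lower with agomelatine against stress and 16 higher against control, led by Opalin (1.18), Ermn (0.82) and Mog (0.65) against stress. The oligodendrocyte mean was highest in agomelatine animal 1 at 11.01 and 10.49 and 10.51 in animals 2 and 3. The part of choroid plexus and oligodendrocyte markers in the rise was not tested. The chloride exporter Slc12a5 (KCC2), a neuronal protein, read 11.08, 11.11 and 11.06 with agomelatine, 11.08, 11.38 and 11.33 under stress and 11.26, 11.32 and 11.18 in control animals. It lay below every control animal, by 0.17 (adjusted p = 0.167), and agomelatine minus stress was -0.19 (adjusted p = 0.125). Slc12a5 passed as lower against the first control arrays alone (-0.25, adjusted p = 0.0376) and against stress without stress animal 1 (-0.28, adjusted p = 0.0248).

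Stress against control called 0 of 27 genes, beside 0% of all genes, and 1 of 27 (Aldh5a1) had an unadjusted p under 0.05, against 5.45% of all genes. Of the 12 genes outside the receptor family, 11 lay above 0, with a median difference of 0.09 (0.02 over all genes), and of the 15 receptor genes 7 lay above 0, with a median of -0.01. Animals did not overlap for 2 of 27 genes, Aldh5a1 and Gabrr1, against 13.4% of all genes. For 25 of the 27 genes the 3 stress animals overlapped the 3 control animals.

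**Figure D4:**
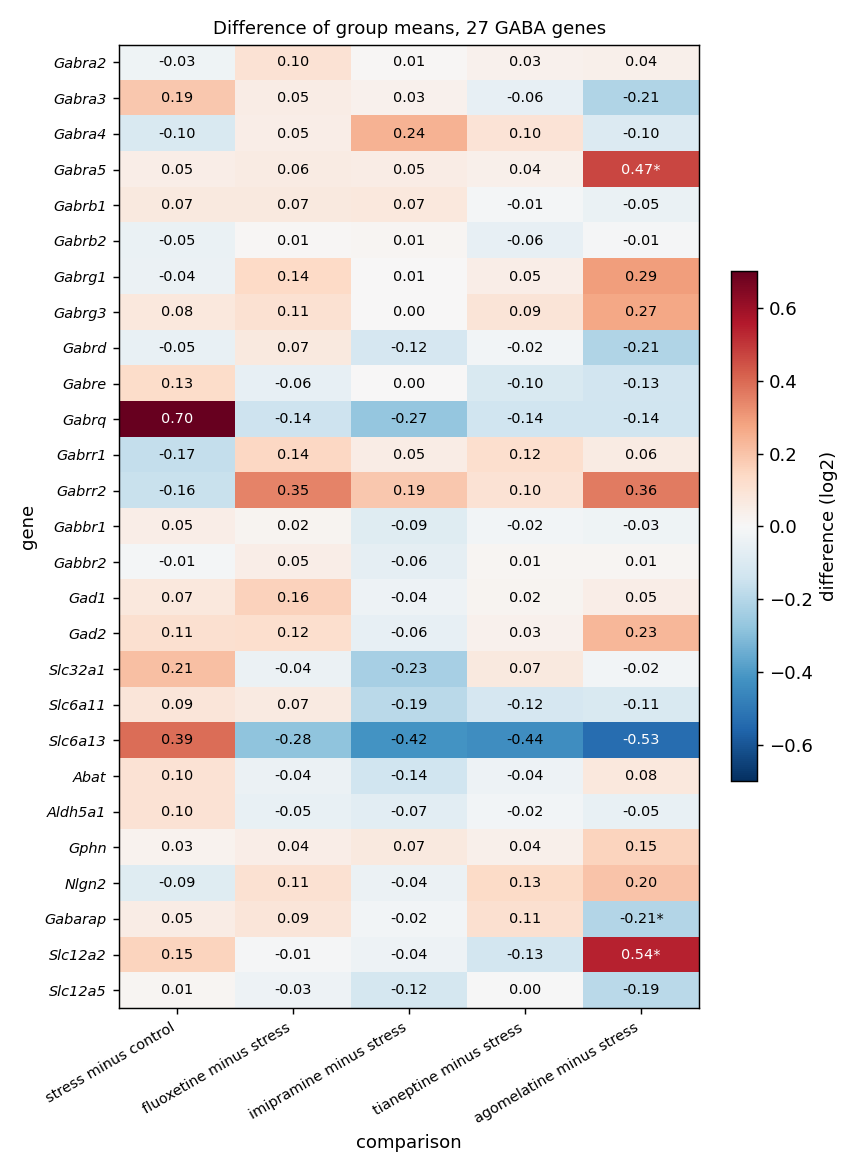
Difference of group means in log2 expression for the 27 tested GABA genes (rows) in stress minus control and each drug minus stress (columns); colour and number give the difference, and an asterisk marks an adjusted p under 0.05. The asterisks stand at Gabra5, Gabarap and Slc12a2 in agomelatine minus stress and at no gene in the other 4 columns.

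Fluoxetine against stress called 0 of 27 genes (0% of all genes), with 1 unadjusted p under 0.05 (5.18% of all genes). Of the 15 receptor genes, 13 lay above 0 at a median of 0.06, and Gabrr2 had the highest receptor difference. Imipramine against stress called 0 (0%), with 4 unadjusted (9.41%): Gabra4 higher, and Slc32a1, Slc6a11 and Slc6a13 lower. Of the 12 genes outside the receptor family 11 lay below 0, at a median of -0.07 against -0.02 over all genes, and animals did not overlap for 8 of 27 genes, against 19% of all genes. Tianeptine against stress called 0 (0%), with 1 unadjusted (5.18%), Slc6a13, and 14 of 27 genes above 0. Against control, fluoxetine, imipramine and tianeptine each called 0 of 27, beside 0%, 0.0168% and 0% of all genes. At an unadjusted p under 0.05 they had 4, 2 and 2 genes of 27, against 4.66%, 7.72% and 3.88% of all genes. These comparisons share the stress or the control animals.

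Fluoxetine, imipramine and tianeptine were given at the same dose for the same time, which allows 3 pairs matched in both. Fluoxetine was given in water and the other 2 drugs in saline, so only imipramine and tianeptine also match in vehicle. Each pair called 0 of 27 genes (0% of all genes). Imipramine and tianeptine, the pair with a tricyclic core, differed by -0.15 to 0.30 over the 27 genes, and 17 lay above 0 for tianeptine minus imipramine. The 2 with an unadjusted p under 0.05, against 5.85% of all genes, were Slc32a1 and Gabarap (0.13, adjusted p = 0.840). The 95% confidence intervals reached up to 0.88 either side of the difference, for Gabrq, so differences of that size could not be seen in that gene. Imipramine minus fluoxetine lay below 0 for 22 of 27 genes at a median of -0.10, with Slc6a11 the lowest at -0.26 (adjusted p = 0.354). In that pair 5 of 27 had an unadjusted p under 0.05, against 10.3% of all genes. Tianeptine minus fluoxetine lay below 0 for 19 of 27 at a median of -0.04, and 1 had an unadjusted p under 0.05, against 4.43% of all genes.

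Partner genes of the pathway, 55 tested genes in 5 lists, were called 0 times in the 10 comparisons without agomelatine and 34 times in the 5 with it, or 12.4% of 275 tests, against 9.73% over all genes. In agomelatine against stress, 1 of 10 glutamate and glutamine supply genes changed: Slc1a1, a neuronal glutamate carrier that also feeds GABA synthesis, fell by 0.36 (adjusted p = 0.00101). Of 17 clustering and trafficking partners of GABA-A receptors, 1 rose and 1 fell. Iqsec3, a gephyrin-binding exchange factor, rose by 0.55 (adjusted p = 0.00286), and Lhfpl4, which holds receptors at inhibitory synapses, fell by 0.41 (adjusted p = 0.000349). None of 11 GABA-B effector and auxiliary genes and none of 5 neurosteroid synthesis genes passed, with 3 and 0 at an unadjusted p under 0.05.

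Of 12 chloride and bicarbonate genes, 3 rose and 2 fell in the same comparison. The kinases Stk39 and Wnk1, which act in the pathway that activates Slc12a2, rose by 0.42 (adjusted p = 0.00841) and 0.20 (adjusted p = 0.0495), and Car2, a carbonic anhydrase known from oligodendrocytes and choroid plexus, by 0.65 (adjusted p = 0.00457). The bicarbonate transporters Slc4a3 and Slc4a8 fell by 0.33 (adjusted p = 0.00538) and 0.25 (adjusted p = 0.0339). The median over the 12 was -0.05, and the list mean was 9.99 in agomelatine animal 1, which also had the highest oligodendrocyte and choroid plexus means. In agomelatine animals 2 and 3 it was 9.77 and 9.73, inside the range of the other animals (9.72 to 9.82). The part of these markers was not tested. In stress against control all 5 lists had 0 calls, and 1, 2, 0, 0 and 0 genes at an unadjusted p under 0.05 in the order supply, clustering, GABA-B, chloride and neurosteroid.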

How the data were processed

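Each number in the authors' deposited table is a log2 signal of a probe set. The submitters' processing notes name RMA, which corrects background, quantile-normalizes and summarizes probes, and the program Affymetrix Expression Console, version 1.2. The array's genome build: not given in the sources used here. One table of 21 arrays and 29214 probe sets was used. The platform annotation gave 1 symbol to 15310 probe sets, several to 323 and none to 13581, and 15279 matched the RefSeq gene table of GRCr8 by gene number. Control arrays were averaged per animal. Probe sets with 1 symbol and a mean at or above the 25th percentile of all probe sets (6.62) were kept, and the highest-mean probe set stood for each gene. A model with a mean for each group was fitted to the 18 animals in limma 3.58.1 (R 4.3.3; 12 residual degrees of freedom, eBayes with trend), with Benjamini-Hochberg adjustment over 11940 genes in each of 15 comparisons and an F test; "rose", "fell" and "called" mean an adjusted p under 0.05. The script was tested on simulated data. Arrays give no read depth, and the number of animals limits the precision.

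The genes and lists were chosen with earlier results of these data known. Values of every animal are given for each gene called in at least 1 comparison, and up to 3 called genes per partner or marker list and direction in agomelatine against stress could be named, of which Aldh1l1 and Ndrg2 (astrocyte), Bcas1 (oligodendrocyte precursor) and Cldn5 and Egfl7 (vascular) are not described further; other genes of the 28, and Prox1 and Ttr among the markers, were named by role or after their values were seen. For those of the 10 cell type marker lists whose calls are not given above, the calls in agomelatine against stress were as follows. Astrocytes had 0 genes higher and 2 lower of 12, oligodendrocyte precursors 1 and 0 of 9, and vascular cells 0 and 2 of 15. Choroid plexus, meninges and microglia had 0 and 0 of 11 each. There 11 choroid plexus, 8 meningeal and 3 microglial markers lay above 0, at list medians of 0.83, 0.27 and -0.095. Alternatives changed the control arrays, normalization, filter, variance model, blocking and groups fitted, and left out each animal.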

Additional observations from a re-analysis of the deposited data

How the results depend on the processing

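The 19 calls were refitted under 14 other settings and without each of the 18 animals. Of these 608 values, 555 stayed on the same side of the threshold, 53 lost the call and 0 changed sign. Fits without an animal outside the 2 groups compared left the difference itself unchanged, as did the filter and variance settings. Such fits could not change its sign, so the 608 values are not 608 separate checks. Calls of GABA genes in agomelatine against control numbered 8 with first control arrays only, 3 with repeat control arrays only, 2 with array weights and 0 with only those 2 groups fitted, against 5 reported, while all genes gave 1854, 638, 428 and 298 calls, against 1025. In agomelatine against stress they numbered 5 with the filter at the 50th percentile and 1 with only the 2 groups fitted, against 3 (1245 of 8638 genes tested and 157 of 11940, against 1139 of 11940). With only the 2 groups fitted, agomelatine called 1 gene against fluoxetine and 2 against imipramine, against 4 each (160 and 471 of all genes, against 1233 and 999). Fluoxetine and tianeptine against control each called 1 gene, Gabarap, with repeat control arrays only (78 and 59 of all genes, against 0), and imipramine against fluoxetine called 2, Gabra2 and Slc6a11, with array weights (370 of all genes, against 0). Fits of 2 groups have fewer animals from which to estimate the spread. The cause of the other moves was not tested. The filter at the 25th percentile of the probe sets with 1 symbol was added after the data were seen. Leaving out 1 animal gave 2 to 9 calls in agomelatine against control, 2 to 5 against stress, 3 to 4 against fluoxetine, 2 to 7 against imipramine and 3 to 6 against tianeptine, 1 to 5 in the F test, and 0 to 0 in each of the other 10 comparisons. Over all genes, agomelatine called 259 to 1302 against control, 550 to 1454 against stress and 805 to 1476 against fluoxetine in those fits. It called 445 to 1302 against imipramine and 712 to 1686 against tianeptine, and the F test called 247 to 987.

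Same-numbered animals had no common direction of deviation (r from -0.30 to 0.29 over 45 pairs, median -0.022, 10 of them over 0.1). Of 18 animals, 7 correlated best with their own number. No pairing by number was seen, but with 3 animals in each group this check cannot exclude one. With the replicate number as a block, agomelatine called 4 genes against control, 4 against stress, 4 against fluoxetine, 5 against imipramine and 3 against tianeptine. Over all genes the counts were 896, 993, 1098, 858 and 1282 of 11940, in the same order. Without the block they were 1025, 1139, 1233, 999 and 1413. Gphn was lost against control, and Gabrg1 was gained against stress and imipramine. The F test called 3 (571 of all genes, against 684 without the block), and the other 10 comparisons called 0.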
